A study of Mus musculus with 18 samples.

Results

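Cap1, Ndufs5, Rlf, Trit1, Ppie, Rimkla and Ybx1 are 7 genes that lie near Ppt1 on mouse chromosome 4, of 18194 genes that the array names by a single symbol. They were selected on their place near Ppt1 and chosen by measured values, since the list was drawn up with the knockout minus wild-type signal differences of these arrays already known. Those differences are therefore given as a description with no test. The array holds 12 probe sets for the 7 genes, and 10 of them were bright enough to be tested. The groups were Ppt1 knockout mice (KO) at 3, 5 and 8 months of age and wild-type mice (WT) at the same ages, with 3 Affymetrix arrays in each of the 6 groups. KO at 8 months comprised 2 males and 1 female, and each other group comprised 1 male and 2 females. The labels name the source of the total RNA with both "brain" and "cochlea". Neither the targeting construct nor the mouse strain or its backcrossing is in the labels, so any difference between the KO and WT chromosomes other than Ppt1 itself cannot be told apart from genotype. Whether the 3 arrays of a group represent 3 mice is not stated in the labels, so the p-values rest on a spread between samples that may in part be technical.

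Palmitoyl-protein thioesterase, the product of Ppt1, works in the lysosome, where it strips palmitate off proteins that are being degraded. People who lack it develop infantile neuronal ceroid lipofuscinosis, a storage disease of the brain. The disease builds up with age, and in mouse brain it brings activation of astrocytes and microglia followed by loss of neurons. The question put to its chromosomal neighbours is which of their KO minus WT differences keep their size over the 3 ages. The 7 genes have unrelated jobs. Cap1 encodes an adenylyl cyclase-associated protein that recycles actin monomers together with cofilin. Ndufs5 encodes an accessory subunit of mitochondrial complex I, the entry point of electrons into the respiratory chain. Ybx1 encodes a cold-shock domain protein that packages mRNA, and Rimkla encodes a synthetase of the neuronal dipeptide N-acetylaspartylglutamate (NAAG). Trit1 adds an isopentenyl group to tRNA beside the anticodon, Ppie encodes a cyclophilin of the spliceosome, and Rlf encodes a zinc-finger protein.

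Counting protein-coding genes in RefSeq order from Ppt1, Cap1 was gene 1, Trit1 gene 4, Ppie gene 7 and Ndufs5 gene 16 towards the higher coordinates, while Rlf was gene 7, Rimkla gene 29 and Ybx1 gene 34 on the other side. Cap1 lies on the minus strand and Ppt1 on the plus strand, and the annotated spans of these neighbours overlap at their ends. Promoters of Cap1, Ndufs5 and Ybx1 are shown because KO and WT arrays did not overlap on the brightest probe set of each. On the other probe sets of Ybx1 they did overlap. Each runs from 250 bases before to 50 bases after the RefSeq start, 5′ to 3′ on the gene's strand in GRCm38.p6, and capitals mark CCAAT or GGGCGG read on either strand.
Cap1, chr4:122886027-122886326, minus strand: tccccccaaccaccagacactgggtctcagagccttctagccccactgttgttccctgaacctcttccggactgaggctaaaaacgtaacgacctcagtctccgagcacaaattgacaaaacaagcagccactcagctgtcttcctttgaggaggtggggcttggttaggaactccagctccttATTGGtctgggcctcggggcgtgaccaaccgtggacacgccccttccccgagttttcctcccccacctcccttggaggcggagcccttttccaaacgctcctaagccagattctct
Ndufs5, chr4:123718137-123718436, minus strand: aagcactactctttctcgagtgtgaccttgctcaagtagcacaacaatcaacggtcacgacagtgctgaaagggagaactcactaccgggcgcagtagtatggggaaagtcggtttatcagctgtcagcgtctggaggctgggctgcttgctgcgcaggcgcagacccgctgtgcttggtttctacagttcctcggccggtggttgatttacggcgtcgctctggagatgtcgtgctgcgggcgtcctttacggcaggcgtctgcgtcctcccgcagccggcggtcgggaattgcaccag
Ybx1, chr4:119294464-119294763, minus strand: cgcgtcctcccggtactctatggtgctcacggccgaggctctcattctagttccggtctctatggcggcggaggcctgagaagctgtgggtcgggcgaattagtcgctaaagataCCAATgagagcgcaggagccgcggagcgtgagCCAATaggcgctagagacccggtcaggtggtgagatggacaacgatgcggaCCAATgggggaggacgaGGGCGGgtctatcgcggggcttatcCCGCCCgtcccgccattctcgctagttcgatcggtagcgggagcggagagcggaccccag

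Both strands were searched for CCAAT (the CCAAT box), GGGCGG (the GC box), TATAAA (the TATA box), CACGTG (an E box) and TGACGTCA (the cAMP response element). The Cap1 promoter held 1 CCAAT match, and the Ndufs5 promoter held no match to any of these 5 motifs. The Ybx1 promoter held 3 CCAAT and 2 GGGCGG matches. Of the 32851 promoters in the table, 37.4% held CCAAT and 35.7% held GGGCGG, while TATAAA was in 13.6%, CACGTG in 7.15% and TGACGTCA in 1.79%. The GC content was 57% for Cap1, 59% for Ndufs5 and 63.3% for Ybx1, against a median of 52.7% over all promoters. A match is a description of these letters and not a binding site.

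Ppt1 itself was read by 5 probe sets. The brightest, 1422467_at, lay between 0.879 and 23.4 signal units on the 9 KO arrays, where 5 did not exceed background, taken from the bacterial controls of each array, and between 543 and 629 on the 9 WT arrays. Probe set 1422468_at averaged 19.0 ± 11.9 units in KO mice and 375 ± 32.6 units in WT mice, and 1444884_at averaged 21.5 ± 8.65 units in KO mice and 48.0 ± 12.0 units in WT mice (SD, n = 9 each). The dim probe set 1420015_s_at was not lower in KO mice, at 65.4 ± 14.4 units in KO mice and 59.0 ± 12.8 units in WT mice, and 1420016_at was at background on all 18 arrays. The position of these 5 probe sets on Ppt1, and hence against its targeted part, was not examined. Signals are linear intensities scaled to a common level on every array. Arrays of a group correlated with each other at a mean Pearson r of at least 0.979 over the tested probe sets, except for the KO arrays at 8 months, where it lay between 0.961 and 0.969. These KO arrays at 8 months stood apart from each other. The changes up to 8 months are therefore also given with 2 of them, replicates 1 and 2, left out together. Replicate 3 then stands alone for KO at 8 months, and it agreed least with its group (0.961, against 0.967 and 0.969). Values given without replicates 1 and 2 thus rest on 1 KO array of that age. Brain cell markers were well measured, with all 5 neuronal and all 5 astrocyte markers tested. Of 13 cochlear markers, 5 were bright enough to test. Among hair cell genes, Tmc1, Slc26a5, Pou4f3 and Strc were too dim to test. Otof, at 49.6 units in KO and 42.0 units in WT mice, and Myo7a, at 115 and 107 units, were tested.

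Cap1 had the largest difference of the 7 genes, and it was there at the youngest age. Probe set 1417461_at read 1261, 1281.5 and 1387 units on the KO arrays at 3 months, against 189, 147 and 253 on the WT arrays of that age. At 5 months it read 1257, 1178 and 1266 in KO mice and 151, 166 and 133 in WT mice. At 8 months it read 1256, 1226 and 1109 in KO mice and 171, 158 and 129 in WT mice. Every KO array stood above every WT array, and the 3 ages looked alike. The means were 1310.0 ± 67.8, 1234 ± 48.3 and 1197 ± 77.8 units in KO mice at 3, 5 and 8 months, and 196 ± 53.3, 150.0 ± 16.6 and 153 ± 21.4 units in WT mice (SD, n = 3 each). The KO mean was 6.67, 8.23 and 7.84 times the WT mean at 3, 5 and 8 months. On the scale used for fitting, log2(signal + 16), the KO minus WT difference stood at 2.67 ± 0.13 in mice of 3 months, 2.92 ± 0.13 in those of 5 months and 2.85 ± 0.13 in those of 8 months (standard error of the fit), and 2.81 ± 0.08 as the mean over ages. That was the 5th highest value of the 27025 tested probe sets.

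The other Cap1 probe set, 1417462_at, differed in the same direction. Probe sequences were not used here, so it was not checked whether the 2 probe sets are independent of each other, or where they lie relative to the overlapping ends of Cap1 and Ppt1. Probe set 1417462_at read 1013, 1051 and 1038 units on the KO arrays at 3 months and 182, 131 and 201 on the WT arrays. At 5 months the values were 826, 917 and 942 in KO mice and 179, 161 and 122 in WT mice. At 8 months they were 1035, 902 and 1009.6 in KO mice and 141, 110.0 and 130.1 in WT mice. KO and WT arrays were again far apart at each age, with KO minus WT differences of 2.50, 2.44 and 2.77 on the log2 scale at 3, 5 and 8 months and 2.57 ± 0.07 as their mean. Relative to its mean, the spread over 9 arrays was smaller in KO mice than in WT mice, with a coefficient of variation of 6.07% in KO and 22.5% in WT mice for 1417461_at, and 7.95% in KO and 20.8% in WT mice for 1417462_at. The WT array of 3 months with the highest Cap1 signal was replicate 3 on both probe sets.

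Ndufs5 was the only member that was lower in KO mice on average. Probe set 1416494_at read 1183, 1115 and 1254 units on the KO arrays at 3 months, against 2376, 2469 and 2611 on the WT arrays. At 5 months it read 1104, 1164.5 and 1232 in KO mice and 2534, 2635 and 2422 in WT mice. At 8 months it read 963, 1048 and 1147 in KO mice and 2529, 2606 and 2413 in WT mice. No KO array came near the WT range at any age. The KO mean was 0.476, 0.461 and 0.418 of the WT mean at 3, 5 and 8 months, and the log2 differences were -1.06 ± 0.07, -1.11 ± 0.07 and -1.24 ± 0.07. Their mean, -1.13 ± 0.04, was the 11th lowest of the 27025 tested probe sets, a list that opens with Ppt1's own. The size of the drop depended on the probe set. A further one, 1416495_s_at, whose annotation joins Ndufs5 with a pseudogene and which is therefore no member, read 1238 ± 75.7 units in KO mice and 1577 ± 67.4 units in WT mice (SD, n = 9 each), a log2 difference of -0.35 ± 0.04. Its 9 KO arrays also lay below every WT array.

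**Figure D1:**
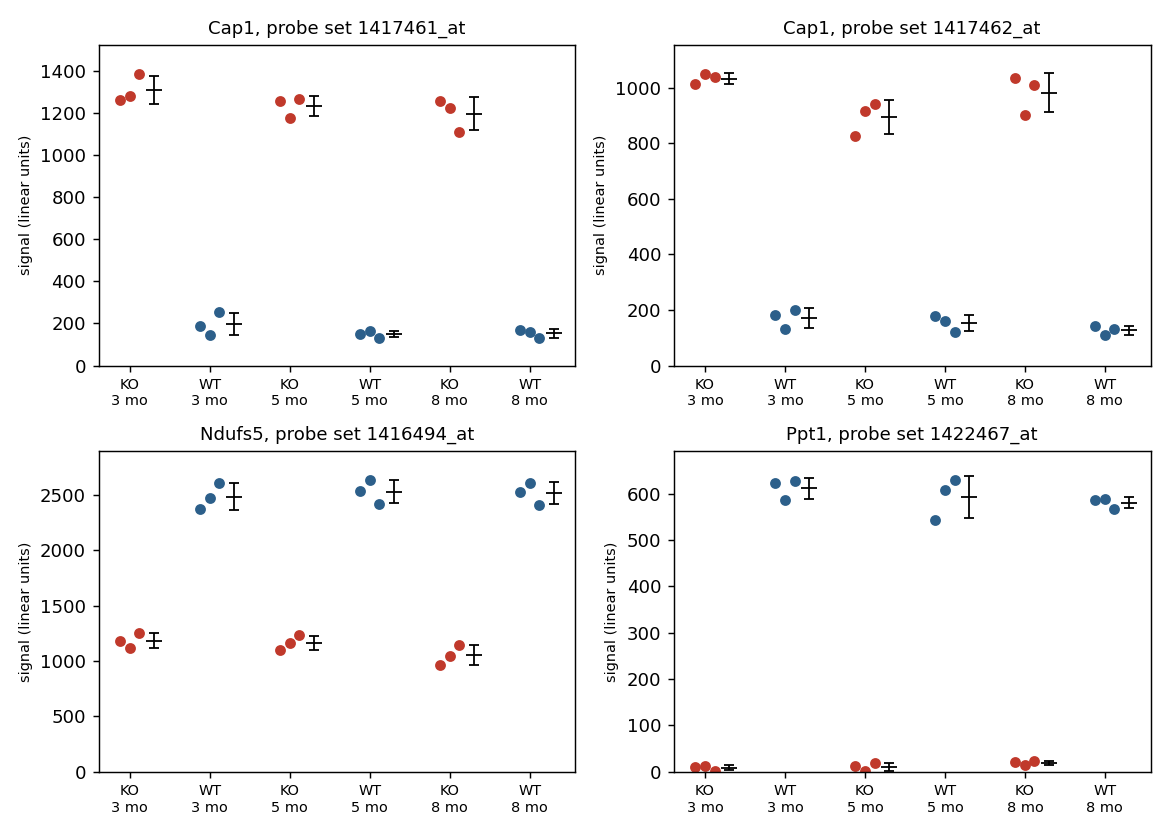
Signals of Cap1 (1417461_at and 1417462_at), Ndufs5 (1416494_at) and Ppt1 (1422467_at) on each array in linear units, by genotype and age, KO in red and WT in blue; bars are the mean ± SD of 3 arrays. KO and WT arrays do not overlap in any of the 4 panels, and the gap is present at 3 months already.

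Ybx1 differed by less, and its gap was narrow at 3 months. Its bright probe set, 1418624_at, read 1087, 1166 and 1113 units on the KO arrays at 3 months and 1049.7, 1083 and 1087 on the WT arrays. At 5 months it read 1333, 1204 and 1213 in KO mice and 1032, 1072 and 1028 in WT mice. At 8 months it read 1212, 1308 and 1201 in KO mice and 1026, 1032 and 943 in WT mice. All 9 KO arrays lay above every WT array, although at 3 months the lowest KO value, 1086.9 units, and the highest WT value, 1086.8 units, were nearly equal. The log2 difference stood at 0.06 ± 0.07 in mice of 3 months, 0.25 ± 0.07 in those of 5 months and 0.31 ± 0.07 in those of 8 months, with a mean of 0.21 ± 0.04. The dim probe set 1438064_at went a different way over the ages, with differences of 0.47, 0.45 and -0.12 on the log2 scale at 3, 5 and 8 months. It averaged 68.7 ± 12.2 units in KO mice and 53.8 ± 11.8 units in WT mice (SD, n = 9 each). The Ybx1 probe set 1430720_at averaged 22.5 ± 12.0 units in KO mice and 16.8 ± 9.71 units in WT mice, was at background on 6 of 18 arrays and was not tested.

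Rimkla was higher in KO mice on average, with overlap between the genotypes. Probe set 1455378_at read 244, 195 and 278 units on the KO arrays at 3 months and 146, 167 and 162 on the WT arrays. The values at 5 months were 199, 209 and 235 in KO mice and 201, 157 and 166 in WT mice. Those at 8 months were 185, 254 and 226 in KO mice and 159.9, 154 and 203 in WT mice. Thus 6 of 9 KO arrays lay above every WT array, and the genotypes were separate at 3 months only. The log2 difference stood at 0.54 ± 0.14 in mice of 3 months, 0.27 ± 0.14 in those of 5 months and 0.35 ± 0.14 in those of 8 months, and 0.39 ± 0.08 on average.

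Rlf, Trit1 and Ppie were dim, and KO and WT arrays overlapped for each of them. Rlf probe set 1427171_at averaged 143 ± 19.4 units in KO mice and 129.7 ± 18.1 units in WT mice (SD, n = 9 each), with log2 differences of -0.06, 0.12 and 0.30 at 3, 5 and 8 months. Rlf probe set 1446057_at averaged 72.3 ± 16.0 units in KO mice and 70.2 ± 22.0 units in WT mice, a log2 difference of 0.07 ± 0.12. The last Rlf probe set, 1439555_at, was at background on 8 of 9 KO arrays and 8 of 9 WT arrays and was not tested. Trit1, by 1424489_a_at, averaged 125 ± 19.9 units in KO mice and 116 ± 16.1 units in WT mice, with differences of 0.01, -0.04 and 0.27 at 3, 5 and 8 months. Ppie, by 1450657_at, averaged 84.5 ± 21.2 units in KO mice and 73.6 ± 7.74 units in WT mice, with differences of 0.18, 0.24 and 0.01. Ppie's KO arrays ranged from 49.8 to 118 units and enclosed the WT range of 58.0 to 83.3. Trit1 and Ppie are nearer to Ppt1 than Ndufs5, and Rlf is nearer than Rimkla and Ybx1.

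**Figure D2:**
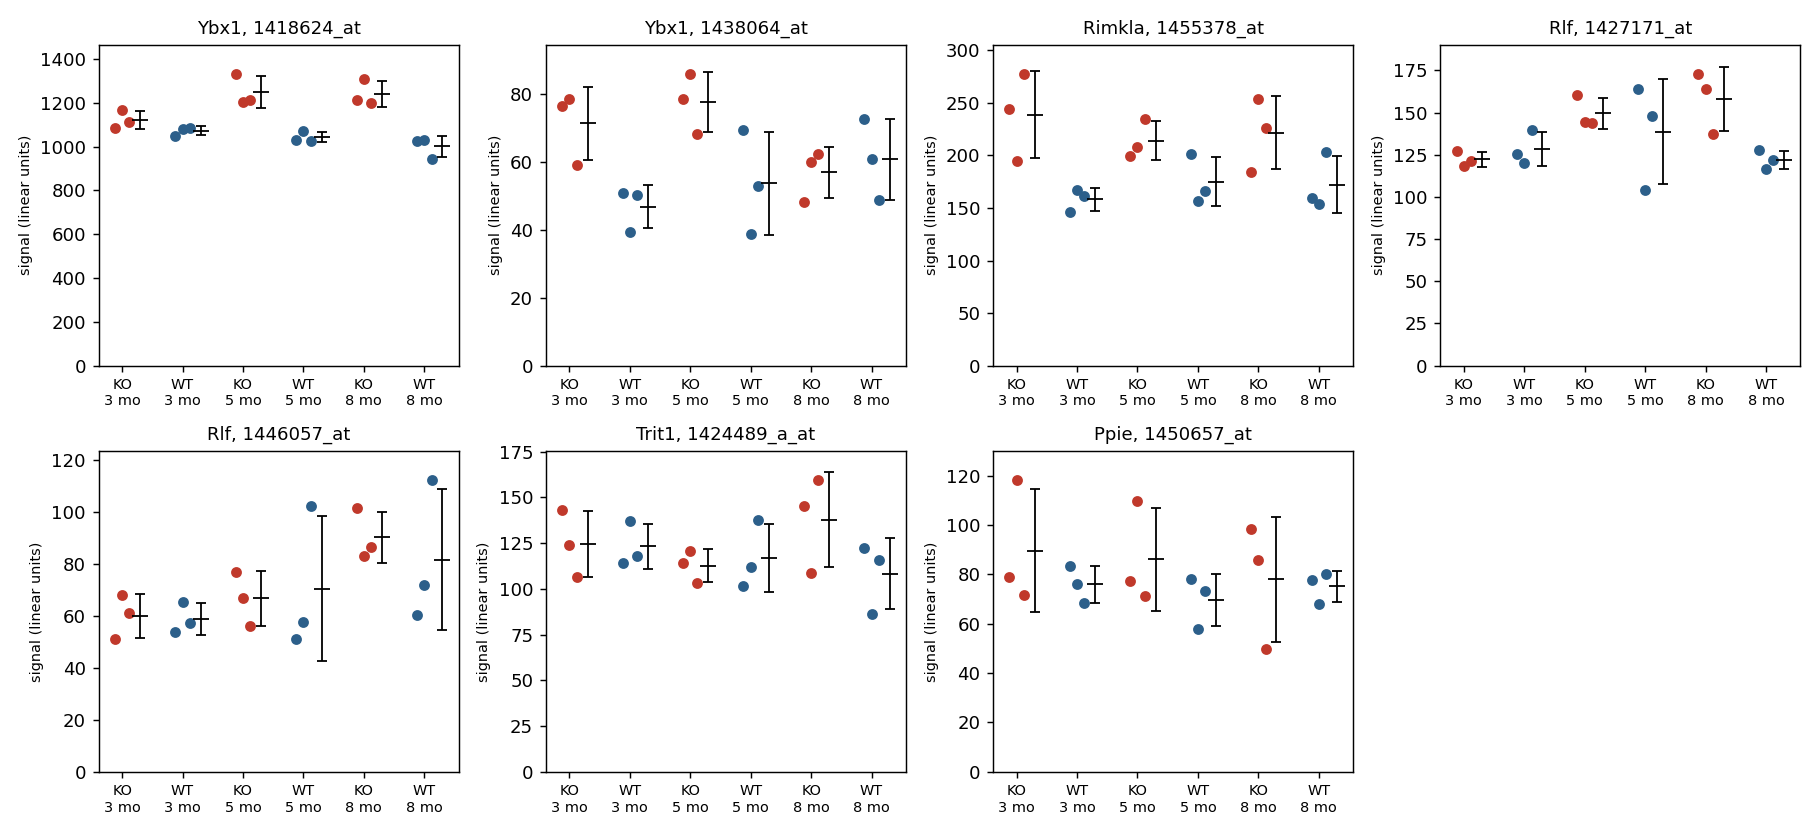
Signals of the tested probe sets of Ybx1, Rimkla, Rlf, Trit1 and Ppie on each array in linear units, by genotype and age, KO in red and WT in blue; bars are the mean ± SD of 3 arrays. Outside Ybx1 1418624_at, KO and WT arrays overlap at 1 or more ages on every panel.

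In all, 9 of the 10 tested probe sets were higher and 1 was lower in KO mice on average, and 6 kept the same sign at the 3 ages. With replicates 1 and 2 of the KO arrays at 8 months left out, 8 were higher and 2 lower, since Ppie turned to -0.02. The median difference of the 10 was 0.18 on the log2 scale, against -0.01 over all 27025 probe sets. In 4 of the 10 no KO array overlapped the WT arrays, 3 with KO above and 1 with KO below, a separation found for 1.5% of all tested probe sets, 1.12% above and 0.377% below. The KO minus WT contrast called 12.6% of all probe sets, 6.62% higher and 6.02% lower (adjusted p under 0.05, limma with Benjamini-Hochberg adjustment). As that contrast chose the genes, nothing is read from these counts. In bulk tissue, fewer cells of a type and less RNA per cell cannot be told apart.

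The genes were chosen with earlier results of these data known, so whether values at single ages played a part in the choice is not known. Whether the differences kept their size over age is a separate contrast from the mean difference above. It was tested as the interaction of genotype and age, a limma F test over the 3 ages, which called 0 of the 10 probe sets against 0.155% (42) of all tested ones. Without adjustment 1 of the 10 passed, Ybx1 1418624_at, against 12.6% of all. The adjusted p-values of the 10 (limma) lay between 0.368 and 0.907. On simulated data this test recovered 4% of probe sets given a log2 change of 0.5 at 8 months and 40% of those given a change of 1, so the intervals say more than the calls.

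For Cap1 1417461_at the KO minus WT difference at 8 months exceeded that at 3 months by 0.17 ± 0.19 on the log2 scale, with a 95% interval of -0.22 to 0.57 (adjusted p = 0.73, limma). For 1417462_at the change was 0.27 ± 0.18 with an interval of -0.11 to 0.65 (adjusted p = 0.535, limma). The Cap1 differences at 3 months were thus 93.9% and 90.3% of those at 8 months. Without replicate 3 of the WT arrays at 3 months, the one with the highest Cap1 signal, the change for 1417461_at was -0.04. For Ndufs5 the change was -0.18 ± 0.10 with an interval of -0.39 to 0.03 (adjusted p = 0.449, limma), and its difference at 3 months was 85.7% of that at 8 months. Leaving out replicates 1 and 2 of the KO arrays at 8 months gave a change of 0.05 for Cap1 1417461_at, 0.28 for 1417462_at and -0.04 for Ndufs5. The differences at 3 months were then 98.2%, 89.8% and 96.7% of those at 8 months. The 3 intervals are narrow beside the KO minus WT differences themselves.

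The Ybx1 probe sets gave values of opposite sign. For 1418624_at the difference was larger at 8 months than at 3 months by 0.25 ± 0.09, with an interval of 0.05 to 0.44 (adjusted p = 0.221, limma). For 1438064_at it was smaller by 0.60, a change of -0.60 ± 0.26 with an interval of -1.13 to -0.06 (adjusted p = 0.285, limma). Neither passed after adjustment. These were the 2 of the 10 probe sets with an unadjusted p under 0.05 for this contrast, against 14.4% of all probe sets, and 0 of the 10 passed after adjustment, against 1.04%. For the other 8 the interval included 0. The value was 0.36 ± 0.19 for Rlf 1427171_at and -0.18 ± 0.20 for Rimkla, with intervals of -0.05 to 0.76 and -0.60 to 0.24. Without replicates 1 and 2 of the KO arrays at 8 months, the changes were 0.19 and -0.58 for the Ybx1 probe sets 1418624_at and 1438064_at, 0.13 for Rlf 1427171_at and -0.15 for Rimkla. Trit1 was then at 0.48 ± 0.26, against 0.26 with all arrays, and Ppie at -0.66 ± 0.33, against -0.16 with all arrays. None of the 10 passed after adjustment in either case.

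**Figure D3:**
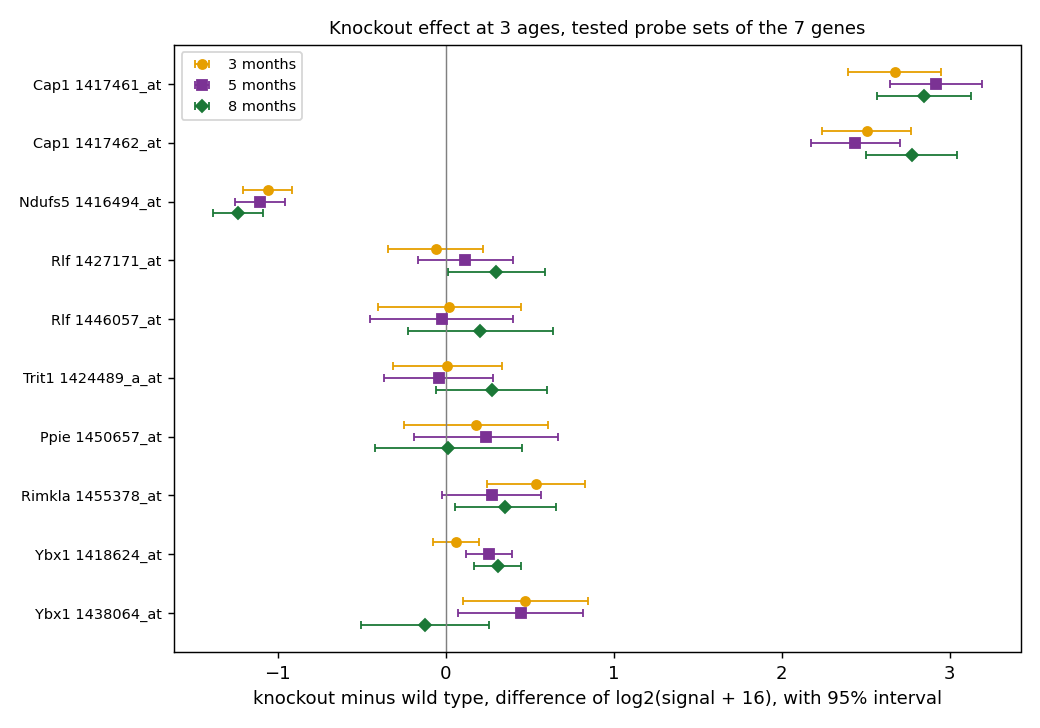
KO minus WT difference of log2(signal + 16) at 3, 5 and 8 months for the 10 tested probe sets, with 95% intervals of the fit. The points of Cap1 1417461_at lie at 2.67, 2.92 and 2.85 and those of Ndufs5 at -1.06, -1.11 and -1.24, with overlapping intervals. Those of Ybx1 1438064_at lie at 0.47, 0.45 and -0.12, and their wider intervals overlap too.

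Large differences elsewhere on the array set this in context. Of the 110 probe sets (0.407%) at least 2-fold higher in KO mice on average, which include both Cap1 probe sets, the difference at 3 months was a median of 61.3% of that at 8 months, with quartiles of 40.8% and 99.0%. In 36 of the 110 it reached at least 85% of the 8-month difference. The change between these ages passed the test in 29 of the 110 (limma, adjusted p under 0.05). These values differed with the KO arrays used at 8 months. Without replicates 1 and 2, which leaves replicate 3 alone, the median was 89.4%, with quartiles of 60.6% and 114%, and 56 of the 110 reached 85%. Of the 13 probe sets (0.0481%) at least 2-fold lower, Ndufs5 included, 12 reached 85% with all arrays and 10 without replicates 1 and 2. None of the 13 passed with all arrays. With all arrays, the 2 Cap1 values lay between the median and the upper quartile of the first group, and the Ndufs5 value of 85.7% lay below the lower quartile of the second group, whose median was 112%.

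Within each genotype, no member passed the tests of age. An F test over the 3 ages of WT mice called 0 of the 10 probe sets against 0.0037% of all (limma), and the 2 with an unadjusted p under 0.05, against 6.81% of all, were those of Cap1. The WT level of Cap1 at 8 months minus that at 3 months was -0.31 ± 0.13 on 1417461_at (adjusted p = 0.685, limma) and -0.38 ± 0.13 on 1417462_at (adjusted p = 0.531, limma). Ndufs5 in WT mice differed by 0.02 ± 0.07. Among KO mice the change from 3 to 8 months called 0 of the 10, against 5.62% of all probe sets, and 4 passed without adjustment, against 20.6%. These 4 were Ndufs5 at -0.16 ± 0.07, both Rlf probe sets at 0.30 ± 0.14 and 0.54 ± 0.21, and Ybx1 1418624_at at 0.15 ± 0.07. Without replicates 1 and 2 of the KO arrays at 8 months they were -0.02 for Ndufs5, 0.06 and 0.58 for Rlf and 0.09 for Ybx1. The change for Ppie in KO mice, -0.17 with all arrays, was then -0.67. These values rest on replicate 3 alone at 8 months. Males and females differed by -0.16 to 0.17 on the log2 scale over the 10 probe sets, and 0 passed with or without adjustment (limma), against 0.0703% and 3.19% of all.

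The group means of the bright genes were also ranked. For Cap1 1417461_at the order from the top was KO at 3, 5 and 8 months and then WT at 3, 8 and 5 months, and neighbours in that order overlapped except where KO meets WT. For Ndufs5 it was WT at 5, 8 and 3 months and then KO at 3, 5 and 8 months, again with a single gap at the change of genotype. For Ybx1 1418624_at KO at 5 and 8 months led, followed by KO at 3 months and WT at 3, 5 and 8 months, and neighbouring groups overlapped except KO at 8 and 3 months and, by the narrow margin given above, KO and WT at 3 months.

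The rest of the neighbourhood was described by gene order. Of the 100 genes within 50 genes of Ppt1, 58 had tested probe sets, 94 in all. Without the 7 genes, 15 of 84 probe sets (17.9%) passed the KO minus WT contrast, 7 higher and 8 lower, against 12.6% of all tested probe sets (limma, adjusted p under 0.05). Counted with 1 probe set per gene, the brightest, 7 of 51 genes (13.7%) passed, against 14.8% of all genes. With the 7 genes kept in, 21.3% of the 94 probe sets and 19.0% of the 58 genes passed. The 7 were chosen with this contrast known and leaving them out lowers the share, so neither an excess nor its absence is read from these shares. The median difference of the 84 was -0.01 on the log2 scale, the same as over all probe sets. None of these 84 was changed 2-fold and in none were the 9 KO and 9 WT arrays fully apart. By distance, over probe sets and without the 7 genes, 2 of 4 probe sets passed at 1 to 10 genes, 11 of 32 (34.4%) at 11 to 25 genes and 2 of 48 (4.17%) at 26 to 50 genes. Farther out it was 11 of 106 (10.4%) at 51 to 100 genes, 21 of 228 (9.21%) beyond 100 and up to 200 genes and 14.1% on the rest of chromosome 4, with 13.3% on the other autosomes.

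Among these neighbours, the smallest p belonged to Hpcal4, a neuronal calcium sensor 8 genes away, which fell by 0.22 ± 0.04 on the log2 scale, with 2806 ± 196 units in KO mice and 3253 ± 212 units in WT mice (SD, n = 9 each; adjusted p = 0.000863, limma). For 6 of the 10 neighbours named here, other probe sets of the same gene did not pass. Hivep3, a zinc-finger transcription factor 24 genes away, rose by 0.44 ± 0.09 on 1 of 4 probe sets (adjusted p = 0.00159, limma), while its brightest differed by 0.06 and the others by 0.16 and 0.10. Akirin1, a nuclear protein 17 genes away and next to Ndufs5, fell by 0.44 ± 0.09 on one probe set (adjusted p = 0.00231, limma), but its brighter probe set differed by 0.08 (adjusted p = 0.496, limma). Scmh1, a Polycomb protein, fell by 0.51 ± 0.12 on a dim probe set, with -0.13 on its brightest and -0.10 on another. Macf1, a crosslinker of actin and microtubules, rose by 0.17 ± 0.04 on its brightest probe set, with -0.01 and 0.22 on the others. Utp11, a factor of ribosome assembly, rose by 0.38 ± 0.09 on one probe set, with 0.06 on the brighter one. Pabpc4, a poly(A)-binding protein, fell by 0.24 ± 0.06 on one probe set, with 0.05 on another of like brightness. Csf3r, the receptor of granulocyte colony-stimulating factor, rose by 0.55 ± 0.12 and Rragc, a GTPase of lysosomal nutrient sensing, by 0.21 ± 0.05, each on its single tested probe set. Rims3, a presynaptic active zone protein, fell on both of its probe sets, by 0.26 ± 0.07 on the brighter one. Each of these differences was smaller in size than that of Ndufs5 on 1416494_at.

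The genes next to Ppt1 gave little to set beside Cap1. On the far side from Cap1, 9530002B09Rik had 1 probe set, too dim to test, while Gm10573 and Gm12887 had none. Beyond Cap1, the 3 probe sets of Mycl were too dim to test, and Mfsd2a was measured by 1 probe set. Mfsd2a encodes the lysophosphatidylcholine transporter of the blood-brain barrier, which carries docosahexaenoic acid into the brain. On average its KO and WT levels were close, at -0.14 ± 0.12, but the average hid opposite differences.

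Mfsd2a read 139, 116 and 148 units on the KO arrays at 3 months and 264, 246 and 299 on the WT arrays. At 5 months it read 183, 143 and 159 in KO mice and 216, 168 and 231 in WT mice. At 8 months it read 465, 219 and 176 in KO mice and 145, 129 and 133 in WT mice. KO arrays were thus all below WT at 3 months and all above at 8 months. The KO minus WT difference stood at -0.93 ± 0.21 in mice of 3 months, -0.31 ± 0.21 in those of 5 months and 0.83 ± 0.21 in those of 8 months, and it changed by 1.76 ± 0.30 from 3 to 8 months (adjusted p = 0.00705, limma). Slc2a1, the glucose transporter of the same barrier, lies 42 genes from Ppt1 and showed the same turn. Its probe set 1434773_a_at averaged 1126 ± 26.6 units in KO mice and 1699 ± 173 units in WT mice at 3 months, and 1713 ± 523 units in KO mice and 1035 ± 78.0 units in WT mice at 8 months (SD, n = 3 each). That change was 1.26 ± 0.19 (adjusted p = 0.00376, limma), with 1.31 and 1.06 on its other probe sets. Without replicates 1 and 2 of the KO arrays at 8 months, which leaves replicate 3 alone, the changes were 1.20 for Mfsd2a and 1.14 for Slc2a1. Mfsd2a and Slc2a1 were the only genes within 50 genes of Ppt1 to pass the contrast of 8 against 3 months. They passed with 4 probe sets of 94, 3 of them for Slc2a1, against 1.04% of all tested probe sets (limma).

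**Figure D4:**
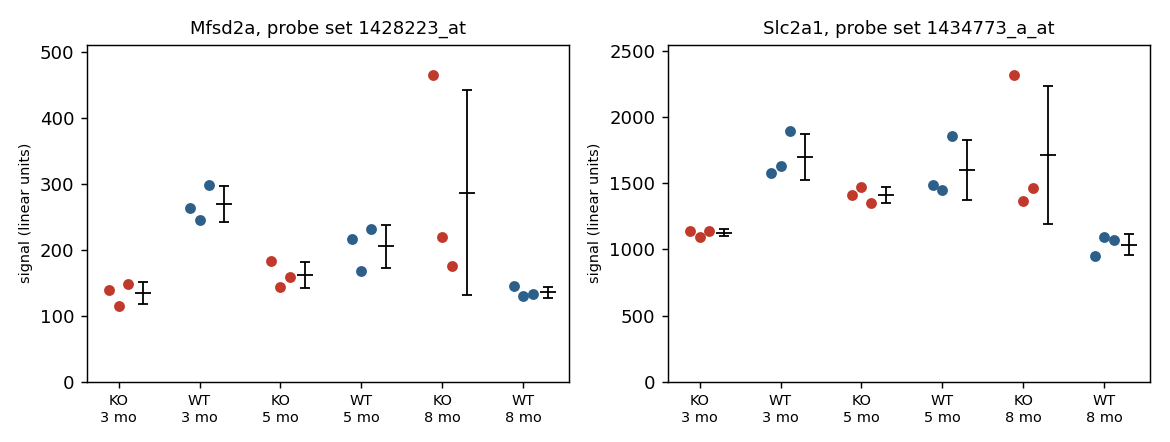
Signals of Mfsd2a (1428223_at) and Slc2a1 (1434773_a_at) on each array in linear units, by genotype and age, KO in red and WT in blue; bars are the mean ± SD of 3 arrays. KO arrays lie below the WT arrays at 3 months and above them at 8 months, with 1 KO array highest of all at 8 months.

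Genes that work with the members were listed by role and taken as 1 probe set per gene, the brightest. For complex I without Ndufs5, 43 subunit and assembly genes were measured, of which 0 rose and 9 fell (limma, adjusted p under 0.05), with a median difference of -0.05 on the log2 scale. Over all 12496 genes 1048 rose and 804 fell, 14.8% in all, with a median of -0.01. Ndufa8 fell by 0.24 ± 0.04, Ndufab1 by 0.23 ± 0.05, Ndufc1 by 0.20 ± 0.04 and Ndufb2 by 0.20 ± 0.04, all complex I subunits, and Ndufb2 was below every WT array on 9 of 9 KO arrays. The lowest value of the 43 was -0.29, for the assembly factor Ndufaf6. The Ndufs5 difference of -1.13 was thus well beyond that of any other complex I gene measured. That of its shared probe set, -0.35 ± 0.04, was a little below the Ndufaf6 value of -0.29 ± 0.09. Neuronal markers moved in the same direction, with 2 of 5 lower, 0 higher and a median of -0.11. Their summed signal was 19845 to 20864 units in KO and 21463 to 22474 units in WT mice at 3 months, and 18845 to 22508 units in KO and 22425 to 22924 units in WT mice at 8 months, and its part in the complex I values was not tested.

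Of 21 measured actin turnover genes, the partners of Cap1, 1 rose and 2 fell, with a median of 0.00. Pfn1, the actin monomer-binding profilin, rose by 0.17 ± 0.04, and Cap2, the paralogue of Cap1, fell by 0.17 ± 0.05 (909 ± 87.0 units in KO and 1017 ± 58.7 units in WT mice, SD, n = 9 each). Adcy1, a neuronal adenylyl cyclase that was counted in this list although it is not an actin gene, fell by 0.19 ± 0.05. Of 17 cyclophilins and Prp19-related genes beside Ppie, not all of them spliceosomal, 1 rose and none fell, and the median was -0.02. The gene that rose was Ppib, a cyclophilin of the endoplasmic reticulum, by 0.29 ± 0.05. Of 21 tRNA modification genes beside Trit1, Trmt61b, a mitochondrial tRNA methyltransferase, fell by 0.29 ± 0.09 and none rose, with a median of -0.09.

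Of 6 genes of NAAG metabolism and its receptor beside Rimkla, 1 rose and 1 fell, with a median of 0.13. Aspa, the oligodendrocyte enzyme that splits N-acetylaspartate, rose by 0.28 ± 0.09, and Grm3, the metabotropic glutamate receptor for NAAG, fell by 0.27 ± 0.06. Of 9 cold-shock domain and mRNA packaging genes beside Ybx1, 2 rose and 1 fell, with a median of 0.06. Pabpc1, the main poly(A)-binding protein, rose by 0.22 ± 0.04, Hnrnpu, a nuclear RNA-binding protein, rose by 0.15 ± 0.05, and Pabpc4 fell by 0.24 ± 0.06 on the probe set named above. None of the genes in the 6 lists changed 2-fold on average, and none passed the F test of genotype and age (limma).

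Glial markers moved with genotype. Of 5 astrocyte markers 4 rose, with a median difference of 0.44, and their summed signal was 15541 to 16707 units in KO and 14502 to 15196 units in WT mice at 3 months, and 21628 to 25741 units in KO and 14684 to 15515 units in WT mice at 8 months. Of 6 microglia and macrophage markers 4 rose, with a median of 1.24 and sums of 2970.0 to 3218 units in KO and 1965 to 2173 units in WT mice at 3 months, and 3469 to 6145 units in KO and 2470.1 to 2610 units in WT mice at 8 months. Their part in the Cap1, Ybx1 and Rimkla differences was not tested. Endothelial markers gave 1 of 3 higher, oligodendrocyte markers 0 of 3 changed and cochlear markers 1 of 5 measured higher (limma, adjusted p under 0.05).

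The genes most like Cap1 over the 18 arrays, by Pearson correlation of log2 values with 1 probe set per gene, were Ifitm3 (r = 0.965), Lgals3bp (0.949), Gbp6 (0.948), B2m (0.948) and Cxcl10 (0.944). These are genes of the interferon response and antigen presentation, on other chromosomes, and each was above every WT array on 9 of 9 KO arrays. The lowest correlations were with Ppt1 (-0.984), Ndufs5 (-0.975), Gabra2 (-0.955), Nnt (-0.947) and Erdr1 (-0.945). Ndufs5 was most like Ppt1 (0.973), Nnt (0.971), Gabra2 (0.958), Nedd8 (0.957) and Erdr1 (0.951), and least like Cap1 (-0.975), Ifitm3 (-0.973), Lgals3bp (-0.969), H2-K1 (-0.964) and B2m (-0.961). The Cap1 and Ndufs5 values fall into 2 sets by genotype, so these correlations mainly order genes by how cleanly KO and WT arrays separate.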

How the data were processed

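RNA of 18 samples was hybridised to 1 Affymetrix mouse array each, with genotype, age and sex taken from the labels and replicates numbered in the order of the sample records. The authors deposited 1 linear intensity per probe set and array. How the authors computed and scaled them is not given in the sources used here. A mean trimmed by 2% at both ends equalled 150.0 on each array, and array medians lay between 43.17 and 46.09. No 2 arrays held identical values, and 3 arrays in a group limit the precision.

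Values were analysed as log2(signal + 16), so differences understate the change of dim genes. Of 45101 probe sets, the 64 controls and the dimmest 40% by mean were left out, which left 27025 whose mean log2 value was 5.36 or more. A model of the 6 groups with an additive sex term was fitted by limma 3.58.1 under R 4.3.3 (lmFit, eBayes with a variance trend) to the 18 arrays, and p-values, all two-sided, were adjusted by Benjamini-Hochberg over the tested probe sets at a threshold of 0.05. Errors after a log2 difference are standard errors of the fit. A signal was at background when it did not exceed the 95th percentile of its own array's 27 bacterial controls.

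Genes were named from the platform annotation, in which 22966 tested probe sets had 1 symbol, 571 several and 3488 none. RefSeq (GRCm38.p6) gave gene order, over protein-coding genes, and promoters, and held no promoter for Ppie. Named genes were Ppt1, the 7 members, neighbours within 50 genes (up to 10 with the smallest p that passed and up to 5 that passed the F test), the 3 genes on each side of Ppt1, up to 4 per role list and the 5 most and least correlated genes. Ndufaf6, the lowest complex I gene, and the marker genes were named outside that rule, Ndufaf6 after its value was seen. The members, role lists and markers were chosen with earlier results of these data known. The fit was tested on simulated data: with 50 of 27025 probe sets given a KO minus WT difference of 0.5, and 50 a difference of 1, the mean contrast recovered 60% and 100%.

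Alternatives were quantile normalization, median centring, other pseudocounts and filters, leaving out the sex term, untrended and robust variance, array weights, each array left out in turn, and the KO replicates 1 and 2 of 8 months left out together.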

Additional observations from a re-analysis of the deposited data

Results flagged for a closer look

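Mfsd2a (1428223_at) drew attention because its KO minus WT difference was not the same at the 3 ages. The KO arrays lay below every WT array of their age at 3 months and above every WT array at 8 months, and the difference changed by 1.76 ± 0.30 on the log2 scale (adjusted p = 0.00705, limma). With any 1 array left out the change lay between 1.41 and 2.04, and without the KO replicates 1 and 2 of 8 months it was 1.20. Replicate 1, at 465 units, was the highest of all 18 arrays.

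Slc2a1 (1434773_a_at) drew attention for the same reason, with KO arrays below every WT array at 3 months and above every WT array at 8 months. Its difference changed by 1.26 ± 0.19 (adjusted p = 0.00376, limma). With any 1 array left out the change lay between 1.04 and 1.47, and without the KO replicates 1 and 2 of 8 months it was 1.14. The 7 genes themselves gave no such result.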

How the results depend on the processing

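Over the alternatives the members gave 0 calls in the F test of genotype and age each time, and the count of 20 within 50 genes, which holds 5 probe sets of the 7 genes, ranged from 14 to 22. Of the recomputed values and calls, 727 kept their direction and side of the threshold or, where no test was made, moved by less than the residual spread, 20 moved, 2 lost their call and 3 reversed. The count of all probe sets called by the F test depended most on the settings: it was 42, and became 68 with a pseudocount of 64, 75 with the dimmest 60% left out, 79 without the sex term, 23 with robust variance, 756 with array weights, 99 without the KO replicates 1 and 2 of 8 months, and 0 without a variance trend, where the cause was not tested. With 1 array left out it ranged from 3 to 1498. It was 1498 without KO replicate 3 of 8 months, 3, 15 and 10 without WT replicates 1, 2 and 3 of 8 months, 17 and 19 without WT replicates 2 and 3 of 3 months, 23 without KO replicate 2 of 3 months and 64 without WT replicate 2 of 5 months. The count for the mean KO minus WT contrast, 3418, was 2069 without the KO replicates 1 and 2 of 8 months, and 2504 to 5027 with 1 array left out. With median centring 43.2% of its calls were higher, against 52.4%.

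The Cap1 differences of 2.81 and 2.57 became 2.52 and 2.27 with a pseudocount of 64, and the other probe set of Cap1 gives 2.57 for 2.81. The Ndufs5 difference of -1.13 was -0.35 on the probe set shared with a pseudogene. The change from 3 to 8 months for Cap1 1417461_at, 0.17, ranged from -0.040 to 0.37 with 1 array left out and was -0.040 without WT replicate 3 of 3 months. That for Ppie, -0.16, ranged from -0.32 to 0.060, with 0.01 without KO replicate 2 of 3 months and 0.060 without KO replicate 3 of 8 months, and was -0.66 without the KO replicates 1 and 2 of 8 months, where the mean Ppie difference of 0.14 became -0.02. The change for Rlf 1427171_at, 0.36, was then 0.13. Without a variance trend Mfsd2a and Slc2a1 had adjusted p-values of 0.0885 and 0.0823 (limma). No paired analysis was possible because the sample numbers in the labels run on across all groups and none is shared. Signals of Rlf, Trit1 and Ppie near 100 units limit what can be seen for these genes.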
